A study of Mus musculus with 6 samples.

Results

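Base excision repair removes single damaged or misplaced bases from DNA. The enzymes described here are the DNA glycosylases *Ung*, *Smug1*, *Tdg*, *Mbd4*, *Ogg1*, *Mutyh*, *Nthl1*, *Neil1* and *Mpg* and the endonuclease *Apex1*, chosen by gene name for their place at the start of the pathway. They are 10 of the 39179 genes listed in the RNA-seq counts of mouse bone marrow, and all 10 had enough reads to be among the 15980 genes tested. The bone marrow came from 3 *MxCDX2* mice and 3 control littermates. *MxCDX2* mice (*RsCDX2::Mx1Cre*) carried both a human *CDX2* coding sequence in the *Rosa26* locus behind a stop sequence that Cre removes, and a *Cre* gene driven by the interferon-inducible *Mx1* promoter. CDX2 is an intestinal homeobox transcription factor that is aberrantly expressed in acute leukemia. Control mouse 1 was *RsCDX2*, control mouse 2 *Mx1Cre* and control mouse 3 wild type, so that each control genotype was represented by a single animal. All 6 mice were 3 months old when they were injected intraperitoneally 3 times with poly(I:C), an inducer of interferon (10 µg per g), and RNA was taken 6 weeks later. *Mx1*-driven Cre acts in every cell that responds to interferon and not in blood cells only.

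A glycosylase recognizes a particular lesion and cuts the bond between the base and the sugar, which leaves an abasic site. APEX1, the main apurinic/apyrimidinic endonuclease, then nicks the DNA backbone at this site. DNA polymerase β fills the gap and XRCC1 with DNA ligase III seals it in the short route, whereas replication polymerases with PCNA, FEN1 and DNA ligase I act in the long-patch route. In blood cells the pathway meets uracil made by cytosine deaminases, deaminated methylcytosine and bases oxidized by reactive oxygen.

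Reads on genes numbered 38646101 to 49899650 per mouse, and mouse *Cdx2* had 4, 0 and 0 reads in controls 1, 2 and 3, against 152, 155 and 183 in the *MxCDX2* animals 1, 2 and 3. These reads were assigned to the mouse gene, and reads of the human coding sequence that was induced cannot be told apart from its own. The cell makeup of the marrow differed between the groups. Marker genes are counted here at an adjusted p below 0.05 (edgeR, described below), which 21.7% of all genes passed. Red cell precursor markers were lower in *MxCDX2* mice in 11 of 11 genes tested, and their summed level was 1840484 to 2196246 normalized counts in control mice against 52596 to 205698 in *MxCDX2* mice. Monocyte markers were higher in 7 of 9 genes (60687 to 75443 against 302997 to 374746), while B-cell markers fell in 5 of 10 (21033 to 56383 against 4843 to 15713) and neutrophil granule genes fell in 5 of 7 (862225 to 1550991 against 419564 to 567169). Of the T-cell markers 1 of 7 was lower, of the megakaryocyte markers 2 of 5, and of the promyelocyte genes 1 of 4 was higher. By direction alone, log2 fold changes were negative in all 10 B-cell, 7 neutrophil, 7 T-cell and 5 megakaryocyte genes. They were positive in all 9 monocyte genes and in 3 of the 4 promyelocyte genes. No gene of these lists was at 0 in all mice. The wild-type control mouse stood apart from the other control mice, with 145831 normalized counts on megakaryocyte genes against 14567 and 16316, and with 31336 on promyelocyte granule genes against 135639 and 168715. Fewer cells of a type and less RNA per cell cannot be told apart in such bulk RNA, and the part of the altered cell makeup in the results was not tested.

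None of the 10 enzymes passed an adjusted p below 0.05 (quasi-likelihood test of edgeR, adjusted after Benjamini and Hochberg over all genes tested), in a comparison in which 21.7% of all genes did. Of these genes 45.6% were higher in *MxCDX2* mice, and 58.6% of those called with library sizes set by total counts, a scaling that put the median log2 fold change of all genes at 0.12. None therefore passed both this threshold and an absolute log2 fold change above 1, which 13.6% of all genes passed. *Nthl1* was the only 1 of the 10 with an unadjusted p below 0.05, which 5761 of the 15980 genes tested had. DESeq2 called 1 of the 10, again *Nthl1*, against 24.9% of the genes to which it gave an adjusted p. Log2 fold changes of the 10 enzymes ran from -0.47 for *Neil1* to 0.61 for *Nthl1*, with a median of 0.17 against 0.00 over all genes tested, and 6 of the 10 were positive. The counts were precise enough to bound most of these differences. In 8 of the 10 the 95% interval of the log2 fold change lay inside -1 to 1, as it did for 48.6% of all genes, and the exceptions were *Nthl1* (0.06 to 1.16) and *Neil1* (-1.29 to 0.35). In 4 of the 10 (*Ung*, *Smug1*, *Nthl1* and *Apex1*) all *MxCDX2* values were above all control values, an order found in 21.4% of all genes. The reverse order, found in 20.7% of all genes, occurred in 0 of the 10. The enzymes varied little between mice of a group, with a median coefficient of variation of 10.2% in control and 10.7% in *MxCDX2* mice, where the medians over all genes tested were 18.4% and 14.2%.

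**Figure D1:**
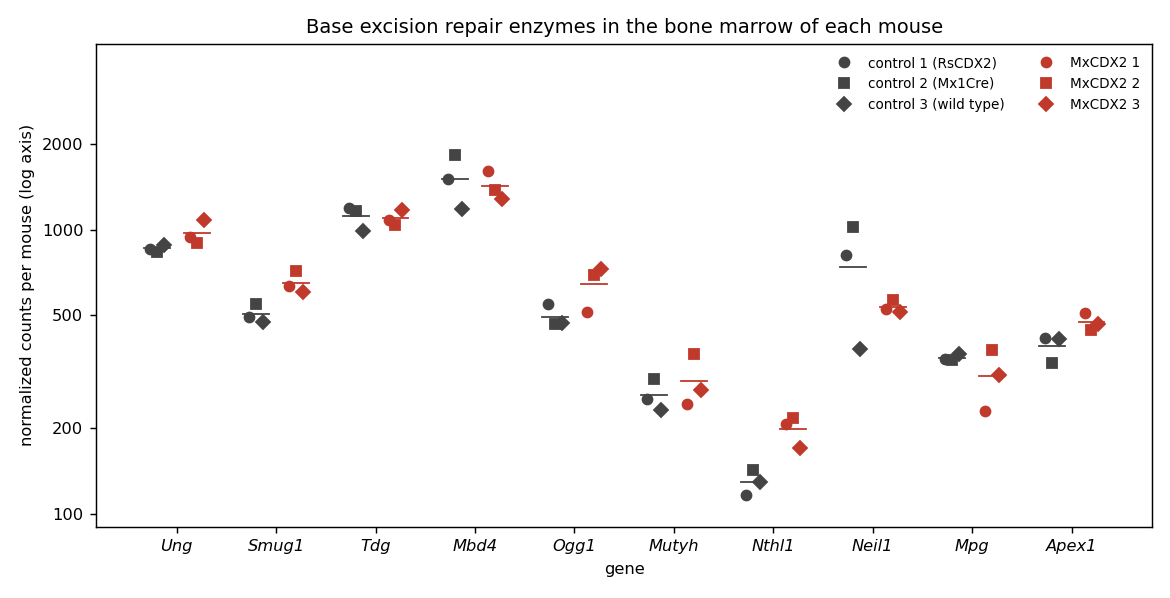
Normalized counts (log axis) of the 10 enzymes in each mouse, with control mice in gray and *MxCDX2* mice in red, a marker shape for each mouse number and a short line at each group mean. *Ung*, *Smug1*, *Nthl1* and *Apex1* have all red points above all gray points, and *Neil1* has its lowest point (381) and its highest (1022) both in control mice.

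Uracil and thymine mispaired with guanine are removed by UNG, SMUG1, TDG and MBD4. *Ung*, on chromosome 5 from 114130386 to 114139323 (GRCm38, plus strand), encodes the main uracil-DNA glycosylase and removes uracil left by replication and by activation-induced deaminase. Its normalized counts (reads scaled by the TMM library size of each mouse to the mean library) were 856, 837 and 882 in controls 1, 2 and 3, in this order, against 941, 898 and 1081 in the *MxCDX2* animals 1, 2 and 3. The groups did not overlap, but the lowest *MxCDX2* mouse was only slightly above the highest control mouse. The group means of 859 ± 22.7 (SD, n = 3) and 973 ± 95.7 (SD, n = 3) gave a log2 fold change of 0.18, with a standard error (SE) of 0.13 and an adjusted p of 0.376. It was 0.10 without *MxCDX2* mouse 3 and 0.30 with total counts.

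*Smug1*, a uracil glycosylase that also removes 5-hydroxymethyluracil, occupies chromosome 15 from 103153290 to 103167092, on the minus strand. It had 491, 547 and 475 normalized counts in the controls, against 632, 714 and 602 in the *MxCDX2* animals. The groups were separate here too, with a gap larger than the one of *Ung*. This gave a log2 fold change of 0.36 (SE 0.16, adjusted p = 0.144), with a 95% interval from -0.01 to 0.74. In an exact permutation test, *Ung*, *Smug1*, *Nthl1* and *Apex1* each had a two-sided p of 0.1, the smallest that 3 mice against 3 allow.

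TDG removes thymine from G:T mispairs and also the oxidized forms of methylcytosine in active demethylation. *Tdg* (chromosome 10 from 82629828 to 82650799, plus strand) had 1196, 1163 and 987 normalized counts in the controls, against 1078, 1035 and 1176 in the *MxCDX2* animals. The values of the groups were interleaved, and *Tdg* had the smallest difference of the 10 enzymes, a log2 fold change of -0.02 (SE 0.13, 95% interval -0.34 to 0.29, adjusted p = 0.918). The sign of this value turned when the library sizes were set by total counts (0.10). The last 367 bases of the gene are also exon of *Glt8d2* on the opposite strand, a gene with only 4 to 41 reads per mouse (log2 fold change -1.29, adjusted p = 0.149).

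MBD4 joins a methyl-CpG-binding domain to a glycosylase that acts on G:T mispairs at CpG sites, where deaminated methylcytosine arises. *Mbd4* (chromosome 6 from 115840697 to 115853371, minus strand) had the highest normalized counts of the 10 enzymes. There were 1507, 1827 and 1178 in the controls, against 1605, 1381 and 1287 in the *MxCDX2* animals. All *MxCDX2* values lay within the range of the control mice. The log2 fold change was -0.08 (SE 0.19, 95% interval -0.52 to 0.36, adjusted p = 0.80), and it was 0.04 with total counts and 0.09 without control mouse 2.

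Among the 4 glycosylases for uracil and thymine, the share held by each was also taken within a mouse, from normalized counts per kilobase of annotated exon. *Mbd4* held the largest share in all 6 mice, 34.6% to 43.0% in control and 32.1% to 39% in *MxCDX2* mice. *Smug1* held the smallest, 10.7% to 12.0% in control and 12.9% to 15.8% in *MxCDX2* mice, which did not overlap. The shares of *Ung* (19.0% to 25% and 22.1% to 26.1%) and *Tdg* (26.9% to 29.9% and 25.7% to 28.9%) overlapped between the groups. Summed over the 4 genes, the level was 645 to 805 normalized counts per kilobase in control mice and 735 to 780 in *MxCDX2* mice, so that the *MxCDX2* values lay within those of the controls. These shares depend on the length used. By the longest protein-coding transcript in place of all exons, *Ung* and *Mbd4* had mean levels of 402 and 416 in control and of 456 and 394 in *MxCDX2* mice.

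**Figure D2:**
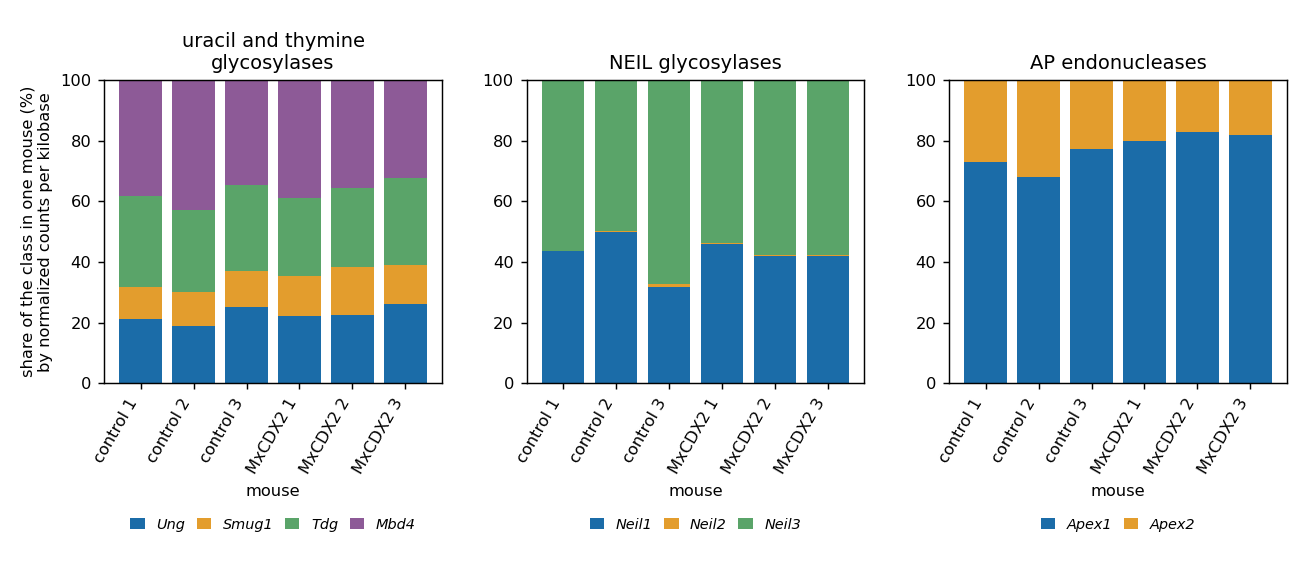
Share (%, by normalized counts per kilobase of exon) of each gene in its enzyme class within each of the 6 mice, for the uracil and thymine glycosylases, the NEIL glycosylases and the apurinic/apyrimidinic (AP) endonucleases. *Mbd4* is the largest part of the first class in every mouse, and the share of *Apex1* is 68.1% to 77.1% in control and 79.8% to 83.0% in *MxCDX2* mice.

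OGG1 and MUTYH both act on oxidized guanine. OGG1 removes 8-oxoguanine paired with cytosine, and MUTYH removes the adenine that replication places opposite 8-oxoguanine. *Ogg1* (chromosome 6 from 113326972 to 113335068, plus strand) had 548, 465 and 468 normalized counts in the controls, against 514, 691 and 727 in the *MxCDX2* animals. *MxCDX2* mouse 1 was below control mouse 1, so the groups overlapped although the other *MxCDX2* mice were above all control mice. For *Ogg1* the log2 fold change was 0.38 (SE 0.19, 95% interval -0.07 to 0.84, adjusted p = 0.201). *Camk1*, on the opposite strand, covers 10.6% of the exon bases of *Ogg1*, and its own log2 fold change was -0.16 (adjusted p = 0.819), with a sign that turned with the replicate block (0.03) and without control mouse 3 (0.45). *Gm15492*, an antisense gene that starts 225 bases from *Ogg1*, had 1 to 10 reads per mouse and was not tested.

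*Mutyh* occupies chromosome 4 from 116807723 to 116819440 (plus strand). In the controls it had 253, 298 and 232 normalized counts, against 243, 365 and 272 in the *MxCDX2* animals. Only *MxCDX2* mouse 2 was above the control range. Its log2 fold change was 0.17 (SE 0.24, 95% interval -0.40 to 0.73, adjusted p = 0.660), and it was -0.02 without *MxCDX2* mouse 2.

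NTHL1 and the NEIL enzymes remove oxidized pyrimidines such as thymine glycol, and the NEIL enzymes also act on ring-opened purines and on single-stranded DNA. *Nthl1* (chromosome 17 from 24632680 to 24638837, plus strand) had the fewest reads of the 10 enzymes, 91 to 221 per mouse. Its normalized counts were 116, 143 and 129 in the controls, against 208, 216 and 171 in the *MxCDX2* animals, so that the groups were separate. The means of 130 ± 13.3 (SD, n = 3) and 198 ± 24.3 (SD, n = 3) gave the largest log2 fold change among the enzymes, 0.61 (SE 0.23, 95% interval 0.06 to 1.16), with an unadjusted p of 0.0334 and an adjusted p of 0.105 from edgeR. DESeq2 gave the same fold change (0.61) with an adjusted p of 0.0328. Over all 13 alternative settings, the log2 fold change of *Nthl1* stayed between 0.55 and 0.73 and the adjusted p between 0.0328 and 0.250.

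*Neil1* (chromosome 9 from 57142800 to 57148305, minus strand) had the most negative value of the 10. Controls 1, 2 and 3 held 817, 1022 and 381 normalized counts of it, against 527, 563 and 514 in the *MxCDX2* animals. The wild-type control mouse was below all *MxCDX2* mice, while the *RsCDX2* and *Mx1Cre* mice were above all of them. The coefficient of variation was 44.2% in control and 4.82% in *MxCDX2* mice. The log2 fold change was -0.47 (SE 0.34, adjusted p = 0.380). Without the wild-type mouse it was -0.76 (adjusted p = 0.0209), in a comparison that called 27.0% of all genes and no other of the 10 enzymes. Without control mouse 2 it was -0.16 (adjusted p = 0.788). The wild-type mouse was also the one with the high megakaryocyte and low promyelocyte markers given above, and its T-cell markers summed to 8749 normalized counts against 4088 and 3792 in controls 1 and 2. B-cell markers summed to 39094, 56383 and 21033 normalized counts in controls 1, 2 and 3, the same order as *Neil1*. In the *MxCDX2* animals 1, 2 and 3 they summed to 15713, 4843 and 11178, which was not the order of *Neil1*. These sums were all below that of control 3, the mouse with the fewest *Neil1* counts. The order of *Neil1* in the controls was not particular to B-cell markers. Monocyte markers, at 73315, 75443 and 60687 normalized counts in controls 1, 2 and 3, had it too. Their sums were higher in *MxCDX2* mice, at 302997 to 374746. The part of these markers in the *Neil1* counts was not tested.

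The other NEIL genes were not among the 10 enzymes. *Neil3*, expressed mainly in dividing cells, had 3128, 3046 and 2396 normalized counts in the controls, against 1824, 2295 and 2088 in the *MxCDX2* animals. All *MxCDX2* mice were below all control mice, and the log2 fold change was -0.47 (SE 0.15, adjusted p = 0.0648). Without the wild-type mouse it was -0.56 (adjusted p = 0.0253). *Neil2* had 7.67 to 34.6 normalized counts in control mice and 10.4 to 13.8 in *MxCDX2* mice. Within the NEIL class, *Neil3* held 49.9% to 67.2% and *Neil1* 31.7% to 49.7% of the level per kilobase in control mice, against 53.6% to 57.7% and 42.0% to 45.9% in *MxCDX2* mice. The share of *Neil2* was at most 1.08% in any mouse.

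MPG removes alkylated purines such as 3-methyladenine, and hypoxanthine. *Mpg* (chromosome 11 from 32226505 to 32232700, plus strand) lies within *Nprl3*, the gene on the opposite strand whose introns hold enhancers of the α-globin genes. For *Mpg*, the controls had 351, 347 and 365 normalized counts, against 230, 376 and 309 in the *MxCDX2* animals. The control mice were within a narrow range (coefficient of variation 2.64%), with *MxCDX2* mouse 2 above it and the others below. For *Mpg* the log2 fold change was -0.22 (SE 0.23, 95% interval -0.76 to 0.33, adjusted p = 0.551). It was -0.05 without *MxCDX2* mouse 1 and -0.39 without *MxCDX2* mouse 2.

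*Nprl3*, which encodes a subunit of a complex that restrains mTORC1, fell in the same libraries. It had 1857, 1780 and 2207 normalized counts in the controls, against 729, 915 and 768 in the *MxCDX2* animals, a log2 fold change of -1.28 (SE 0.15, adjusted p = 0.00296, and 0.0100 with the replicate block). Within a mouse there were 5.28, 5.14 and 6.05 reads of *Nprl3* per read of *Mpg* in the controls, against 3.17, 2.43 and 2.48 in the *MxCDX2* animals. The ratio was thus lower in all *MxCDX2* mice (difference of the mean log2 ratios -1.03, exact permutation test, two-sided p = 0.1, 0.233 after adjustment over 7 such ratios). The α-globin gene *Hba-a1* and the other red cell markers fell in these mice as well, and their part in the fall of *Nprl3* was not tested. Exons of *Nprl3* cover 35.7% of the exon bases of *Mpg*. Whether strand was used in counting is not given in the sources used here, and without it reads of these bases cannot be told apart.

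APEX1 cuts abasic sites made by the glycosylases and also acts as a redox regulator of transcription factors. *Apex1* (chromosome 14 from 50924968 to 50927139, plus strand) had 415, 339 and 413 normalized counts in the controls, against 510, 442 and 467 in the *MxCDX2* animals. The groups did not overlap, and the gap between them was narrower than the spread within either group. The log2 fold change was 0.28 (SE 0.18, 95% interval -0.14 to 0.70, adjusted p = 0.30). *Apex2*, which encodes the second AP endonuclease with weaker activity on abasic sites, had 947, 975 and 753 normalized counts in the controls, against 795, 558 and 630 in the *MxCDX2* animals (log2 fold change -0.43, SE 0.19, adjusted p = 0.156). *Apex1* held 73.0%, 68.1% and 77.1% of the AP endonuclease level per kilobase in controls 1, 2 and 3, against 79.8%, 83.0% and 82.0% in the *MxCDX2* animals 1, 2 and 3. Its share was therefore higher in each *MxCDX2* mouse than in any control mouse, although neither gene passed by itself and the share was not tested.

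The count of *Apex1* is less certain than the others. *Pip4p1*, a phosphoinositide phosphatase gene on the opposite strand, shares 61.7% of the exon bases of *Apex1*. It rose from 2109, 2490 and 1944 normalized counts in the controls to 3613, 4506 and 4040 in the *MxCDX2* animals, a log2 fold change of 0.89 (SE 0.14, adjusted p = 0.00652). There were 5.08, 7.35 and 4.71 reads of *Pip4p1* per read of *Apex1* in the controls, against 7.09, 10.2 and 8.66 in the *MxCDX2* animals. These ratios overlapped between the groups (unpaired exact permutation test, two-sided p = 0.2). How reads on the shared bases were counted is not given, and the part of *Pip4p1* in the count of *Apex1* was not tested.

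**Figure D3:**
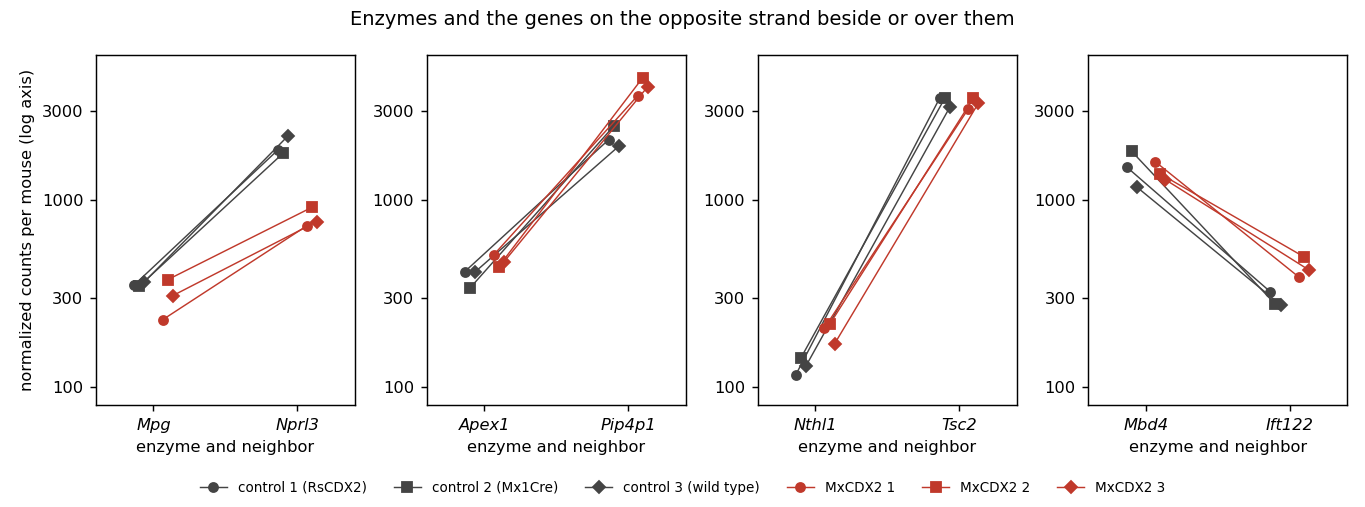
Normalized counts (log axis) of 4 enzymes and of the gene on the opposite strand that overlaps them (*Nprl3*, *Pip4p1*) or starts beside them (*Tsc2*, *Ift122*), with a line for each of the 6 mice, control in gray and *MxCDX2* in red. *Nprl3* is lower in all *MxCDX2* mice (729 to 915 against 1780 to 2207) while *Mpg* overlaps between the groups, and *Tsc2* overlaps while *Nthl1* is separate.

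Another feature of these genes was the closeness of their start sites to those of other genes. In 4 of the 10 enzymes (40.0%), a protein-coding gene on the opposite strand starts within 100 bases, as it does for 4.87% of the 13626 protein-coding genes tested. The pairs are *Nthl1* with *Tsc2* (50 bases apart), *Apex1* with *Osgep* (75), *Mutyh* with *Toe1* (83) and *Mbd4* with *Ift122* (99). Across these pairs the enzyme and its partner had log2 fold changes of 0.61 and -0.03, of 0.28 and 0.43, of 0.17 and 0.15, and of -0.08 and 0.57. The count of 4 depends on the cutoff and on the start used. *Mbd4* and *Ift122* are only just within 100 bases. The RefSeq start of *Mbd4*, used for the promoters below, lies 30 bases farther from *Ift122*, which puts this pair outside the cutoff. The contrast with all protein-coding genes was not tested with other cutoffs or starts. *Tsc2*, whose product restrains mTORC1, had 3507, 3498 and 3133 normalized counts in the controls, against 3083, 3511 and 3307 in the *MxCDX2* animals. Values of *Tsc2* were interleaved where those of *Nthl1* were separate, and reads of *Tsc2* per read of *Nthl1* were 30.2, 24.5 and 24.2 in the controls, against 14.8, 16.2 and 19.4 in the *MxCDX2* animals. *Ift122*, a gene of cilium transport, had 323, 277 and 276 normalized counts in the controls, against 387, 497 and 422 in the *MxCDX2* animals. Neither *Ift122* (adjusted p = 0.0753) nor *Osgep* (adjusted p = 0.0684) passed with edgeR on TMM library sizes, although both did with DESeq2 (0.0173 and 0.0484) and with edgeR on total counts (0.0437 and 0.0486), and *Osgep* also without control mouse 3 (0.0178).

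The promoters were searched on both strands, from 250 bases before to 50 after the RefSeq start, for short runs of letters. TTTAT stood for a site of CDX factors, AGATAA for one of the GATA family, TTTNNCGC for E2F and GGGCGG for a GC box. All 10 enzymes had such a window (GRCm38.p6), and of the pair of windows of *Mutyh* the one nearer to its annotated start was used. A GC box was found in 8 of the 10, as in 35.7% of 32841 promoter windows in the table, and the windows had 53.0% to 65.3% G or C against a median of 52.7%. The CDX letters occurred in 1 of the 10 (40.0% of all windows), the GATA letters in 1 (11.2%) and the E2F letters in 1 (5.17%). The RefSeq start of *Smug1* is 3808 bases from the outermost start in the gene annotation. A match is only a run of letters, and no binding was measured here. The promoters of *Neil1* and *Nthl1* are shown because these genes had the most negative and the most positive fold changes, with the matches in capitals:
Neil1 promoter, chr9:57148256-57148555, minus strand: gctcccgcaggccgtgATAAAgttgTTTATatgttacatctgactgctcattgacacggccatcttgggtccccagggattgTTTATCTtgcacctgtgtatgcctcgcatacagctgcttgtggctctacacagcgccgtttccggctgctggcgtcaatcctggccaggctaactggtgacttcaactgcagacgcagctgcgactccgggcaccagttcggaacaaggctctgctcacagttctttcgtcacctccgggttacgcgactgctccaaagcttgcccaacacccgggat
Nthl1 promoter, chr17:24632432-24632731, plus strand: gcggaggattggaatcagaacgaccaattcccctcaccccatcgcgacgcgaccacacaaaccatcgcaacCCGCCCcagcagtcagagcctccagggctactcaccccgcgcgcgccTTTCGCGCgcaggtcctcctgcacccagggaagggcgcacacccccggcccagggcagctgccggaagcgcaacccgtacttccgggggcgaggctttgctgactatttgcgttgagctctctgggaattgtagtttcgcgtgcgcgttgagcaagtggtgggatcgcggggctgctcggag
In the *Neil1* window the capitals mark 3 matches to the CDX letters, which begin 234, 225 and 168 bases before the start, and a GATA match at 167 that overlaps the last of them. In the *Nthl1* window they mark a GC box 179 bases and an E2F match 132 bases before the start.

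Levels can be compared between genes only per length, and were set side by side as normalized counts per kilobase of all annotated exons. In control mice the order from the highest was *Neil1* (395 ± 175, SD, n = 3), *Mbd4* (285 ± 61.5), *Apex1* (274 ± 30.7), *Ogg1* (226 ± 21.7), *Tdg* (208 ± 20.9), *Ung* (157 ± 4.15), *Mutyh* (99.97 ± 12.8), *Mpg* (94.4 ± 2.49), *Smug1* (82.1 ± 6.18) and *Nthl1* (47.7 ± 4.91). The ranges of neighbors in this order overlapped over the first 5 genes and between *Mutyh* and *Mpg*, and were separate elsewhere. *MxCDX2* mice had *Apex1* (332 ± 24.1), *Ogg1* (294 ± 52.1) and *Neil1* (286 ± 13.8) first and *Nthl1* (72.9 ± 8.95) last. The order depends on the length used. Divided by the longest protein-coding transcript, *Ung* was 3rd in control and 1st in *MxCDX2* mice in place of 6th in both, and *Apex1* was 6th and 4th. All 10 lay between the 29.1th and the 59.5th percentile of the level per kilobase among the genes tested. The places of *Apex1* and *Mpg* are less certain. Both share many exon bases with *Pip4p1* and *Nprl3*, respectively, and how reads on these bases were counted is not given.

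Downstream of the enzymes, 33 other genes of base excision repair and its nucleotide supply were examined. Adjusted p-values were below 0.05 in 5 of the 33 (15.2%, against 21.7% of all genes tested), 3 of them higher and 2 lower in *MxCDX2* mice, and none had an absolute log2 fold change above 1. The median log2 fold change of the 33 was -0.05. *Polb*, the gap-filling polymerase of the short route, had 888, 871 and 836 normalized counts in the controls, against 1116, 1410 and 1259 in the *MxCDX2* animals, a log2 fold change of 0.54 (SE 0.13, adjusted p = 0.0315). *Dut*, which encodes the dUTPase that keeps uracil out of DNA, rose by 0.44 (adjusted p = 0.0282), and *Pold4*, a small subunit of polymerase δ, by 0.39 (adjusted p = 0.0492), both on the log2 scale. *Pole3*, a histone-fold subunit of polymerase ε, had 2887, 2499 and 2922 normalized counts in the controls, against 1869, 1671 and 1960 in the *MxCDX2* animals, a log2 fold change of -0.60 (SE 0.12, adjusted p = 0.0141). *Rfc4*, a subunit of the loader of PCNA, had a log2 fold change of -0.57 (adjusted p = 0.0445). With the replicate block, which pairs the mice by number, 2 of the 33 passed, *Pole3* (adjusted p = 0.0179) and *Rfc4* (0.0457), whereas *Polb* (0.0559), *Dut* (0.0509) and *Pold4* (0.0919) did not. Without the wild-type mouse 8 of the 33 passed, where 27.0% of all genes did. With another mouse left out, the number was 1 without control mouse 1, 1 without control mouse 2, 2 without *MxCDX2* mouse 1, 1 without *MxCDX2* mouse 2 and 0 without *MxCDX2* mouse 3. Calls over all genes fell too. In the same order they were 2381, 2485, 2394, 2052 and 1482 of 16275 to 16501 genes tested, against 3471 of 15980 with all mice.

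By route, 1 of 8 genes of the short route passed, 0 of 4 of poly(ADP-ribose) signaling, 3 of 16 of the long-patch route and 1 of 2 of the nucleotide pool. *Neil2*, *Neil3* and *Apex2* made up the rest, and 0 of these 3 passed. The scaffold *Xrcc1* (log2 fold change -0.08), the ligase *Lig3* (0.06), the nick sensor *Parp1* (0.09) and the flap endonuclease *Fen1* (-0.17) had adjusted p-values of 0.594 or more. *Lig1*, the replicative ligase, and *Pcna*, the sliding clamp, had log2 fold changes of -0.45 (adjusted p = 0.0535) and -0.40 (0.0692). In both genes, all *MxCDX2* values were below all control values. Proliferation markers moved in the same direction, with 7 of 15 lower at an adjusted p below 0.05 and a summed level of 178156 to 267971 normalized counts in control against 144017 to 180049 in *MxCDX2* mice, and their part in the values of the long-patch genes was not tested.

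**Figure D4:**
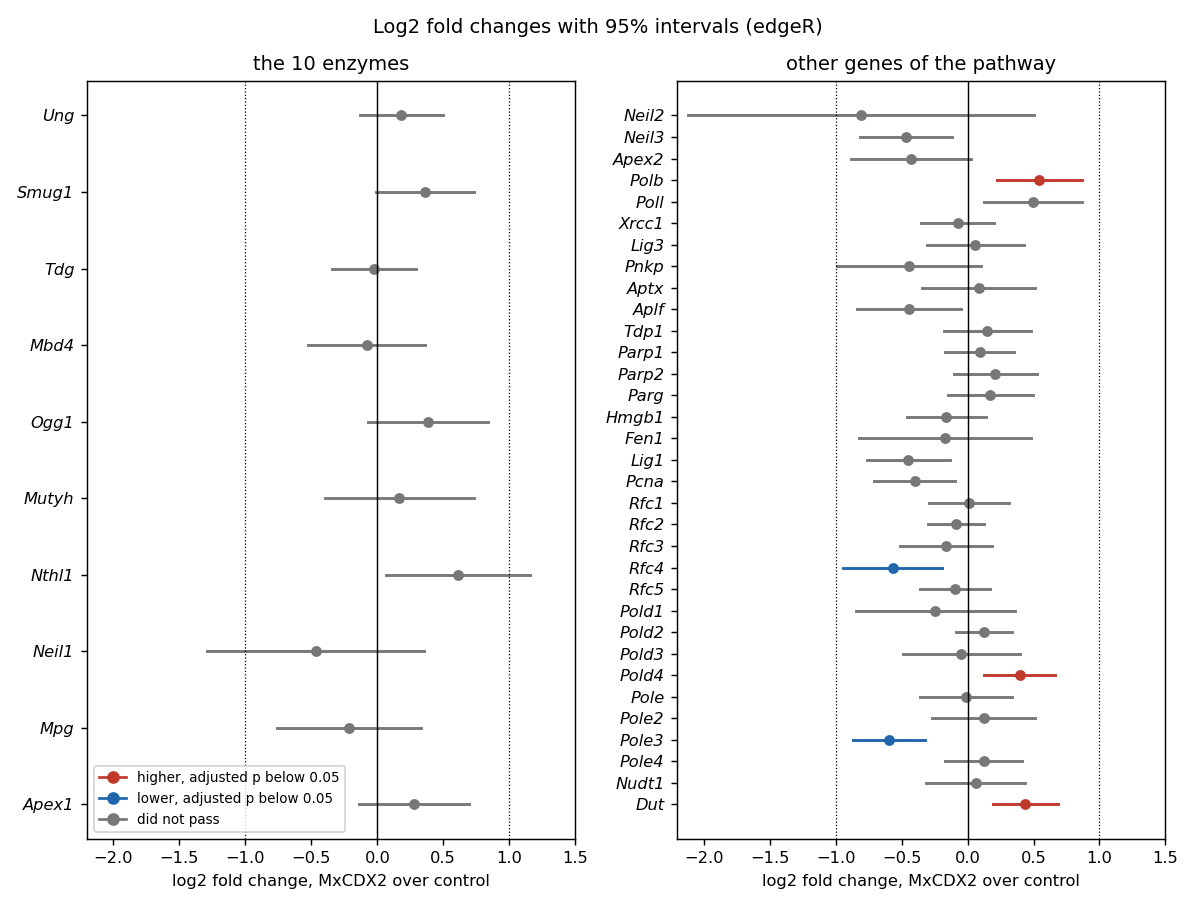
Log2 fold changes (*MxCDX2* over control, edgeR) with 95% intervals for the 10 enzymes and for 33 other genes of the pathway, with dotted lines at -1 and 1, red for genes higher and blue for genes lower at an adjusted p below 0.05 and gray for genes that did not pass. None of the 10 enzymes is colored, and the 5 colored genes are *Polb*, *Pold4* and *Dut* on the right of 0 and *Rfc4* and *Pole3* on the left.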

How the data were processed

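RNA-seq of bone marrow was performed in 3 control and 3 *MxCDX2* mice (Illumina TruSeq stranded mRNA). The deposited values are raw read counts per gene, which the authors made with STAR 2.5 on GRCm38 and HTSeq 0.6.1; the strand setting is not given in the sources used here. HTSeq rows that name no gene were left out (9.22% to 14.1% of reads without a feature, 2.99% to 3.16% ambiguous). Symbols, coordinates and exon lengths came from GENCODE M21. The main test was edgeR 4.0.16 (TMM, filterByExpr, quasi-likelihood F-test, Benjamini-Hochberg) in R 4.3.3, with DESeq2 1.42.0 as an alternative, both tested on simulated data. Single genes were also compared by exact permutation (scipy 1.17.1). The members and gene lists were chosen with earlier results of these data known. All 10 enzymes, *Neil2*, *Neil3*, *Apex2*, 7 set genes of the later steps, those past both thresholds and each annotated gene that overlaps an enzyme or starts within 1000 bases of it, with 10 reads or more in a mouse, were to be named. *Dut*, *Pold4*, *Pole3* and *Rfc4* were named after their values were seen. Of 112 listed symbols, 1 was not matched. Same-numbered mice deviated together (correlations of 0.17 to 0.29, other pairs -0.33 to 0.10), with numbers from the labels. The sources used here do not state that mice with the same number form pairs, and these correlations cannot settle it. The main fit and the permutation tests were unpaired. Pairing by number entered only in the alternative with a replicate block. No 2 libraries of the same group agreed within sampling noise. The mice were littermates, and the p-values measure the spread between single animals, which among the controls also differed in genotype.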

Additional observations from a re-analysis of the deposited data

How the results depend on the processing

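Of 130 values of the enzymes under 13 alternatives each, 120 kept both direction and side of the threshold. With 1 mouse left out in turn, 0 to 1 enzymes, 0 to 8 of the 33 other repair genes, 1482 to 4361 genes of all tested and 1205 to 2406 past both thresholds were called, in fits with fewer mice. All genes called fell to 2052 without *MxCDX2* mouse 2 and to 1482 without *MxCDX2* mouse 3, where 1205 passed both. The 1 enzyme was *Neil1*, without control mouse 3. DESeq2 called 1 enzyme (*Nthl1*), no enzyme passed both thresholds under any alternative run, and of the other repair genes 3 passed with every gene of at least 1 count. The replicate block called 0 enzymes, 2 other repair genes and 3362 genes in all, and changed no other call of a named gene. Signs turned for *Tdg* (0.096 with total counts, 0.0073 with every gene, -0.087 to 0.042 with 1 mouse left out), *Mbd4* (0.041 with total counts, -0.21 to 0.086 with 1 mouse left out), *Mutyh* (-0.017 to 0.288), *Tsc2* (0.087 with total counts, -0.076 to 0.015 with 1 mouse left out) and *Camk1* (0.026 with the replicate block, -0.49 to 0.45 with 1 mouse left out). Scaling by total counts moved the median log2 fold change of all genes from 0.0021 to 0.118. *Nthl1*, with the fewest reads, was the enzyme most limited by depth. The length used for levels per kilobase was varied after seeing the data.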
